A study of Homo sapiens with 66 samples.

Results

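The 10 histone lysine demethylase genes below were followed through the ChIP-seq peak lists of the hypoxia-inducible factors (HIF): KDM2A, KDM2B, KDM3A, KDM3B, KDM4A, KDM4B, KDM4C, KDM5B, KDM6B and KDM7A. These are 10 of 19821 protein-coding genes in the annotation. A peak was given to a gene when its centre lay in the gene body, or within 50 kb of a transcription start site (TSS), and nearer to that gene than to any other protein-coding gene. In all, 268 of 131425 peaks were given to these genes. A gene is described as called in a library when at least 1 such peak was listed there.

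The 50 ChIP libraries fall into 25 groups of 2, from 3 human cell lines, each library made with an antibody to 1 of 3 subunits (HIF-1β, HIF-1α or HIF-2α). HKC-8 cells, a line of kidney proximal tubule origin, were made hypoxic to 0.5% oxygen, harvested at 6, 16 and 48 h, or held at 3% oxygen and harvested at 6 h, with all 3 antibodies each time. In a separate experiment HKC-8 wild-type cells were compared with cells lacking HIF-1α (HIF-1α KO) or HIF-2α (HIF-2α KO), all after 16 h at 0.5% oxygen. Each knockout was a single CRISPR-Cas9 clone and has no libraries for its missing subunit. RCC4 cells, from a renal carcinoma without working VHL and so with HIF-α present in normal oxygen, were used in normoxia, and HepG2 cells, a liver carcinoma line, after 16 h in 0.5% oxygen. The authors describe the duplicates as independent ChIP-seq experiments. The labels do not say that the 2 libraries of a group came from separate cultures, so p-values measure the spread between these libraries. The files hold peaks and a score, not reads, so read depth is unknown.

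HIF is a dimer of an oxygen-labile α subunit with HIF-1β, and it binds a short core, ACGTG or GCGTG, in hypoxia response elements (HREs). Histone lysine demethylases of the JmjC class remove methyl groups from histones and need molecular oxygen, iron and 2-oxoglutarate, as do the prolyl hydroxylases that mark HIF-α for destruction. Several genes of this class are known HIF targets, KDM3A and KDM4B being the classical examples.

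The lists held between 237 and 8279 peaks. The shortest, 237 peaks, was HIF-2α replicate 2 of the 48 h HKC-8 group, whose other library held 1383. Library labels were also checked by the share of peaks within 1 kb of a TSS. In HepG2 that share was 6.73% and 28.7% in the HIF-1α libraries (replicates 1 and 2) and 30.6% and 8.08% in the HIF-2α libraries, so the replicates of each antibody stand far apart and resemble the opposite replicate of the other antibody. HepG2 libraries are used as labelled, and the comparison of HIF-1α with HIF-2α is given with and without them; counts of libraries per antibody include them. The share also differed in RCC4, at 39.0% and 16.2% for HIF-1α.

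The sequence under the leading binding sites is shown first so that the number and position of HRE cores, which differ between sites, can be read beside the binding. The GRCh37 plus strand is printed, with HRE cores on either strand in capitals. For KDM4B, KDM6B, KDM5B and an upstream KDM4C site the window spans 100 bp to either side of the median peak centre. Where that window met an annotated UTR, 30 bases around the core are printed instead.
KDM4B, chr19:4968523-4968723: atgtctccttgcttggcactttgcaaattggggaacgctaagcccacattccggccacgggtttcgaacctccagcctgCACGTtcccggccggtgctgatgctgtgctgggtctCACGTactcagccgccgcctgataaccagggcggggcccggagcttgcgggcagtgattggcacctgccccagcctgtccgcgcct
KDM3A, chr2:86667951-86667980: cgcctgaaaccgCACGTtctcttccctgcc
KDM2B, chr12:122018561-122018590: ccgagcatgctgGCGTGaaagcccccgggg
KDM6B, chr17:7738959-7739159: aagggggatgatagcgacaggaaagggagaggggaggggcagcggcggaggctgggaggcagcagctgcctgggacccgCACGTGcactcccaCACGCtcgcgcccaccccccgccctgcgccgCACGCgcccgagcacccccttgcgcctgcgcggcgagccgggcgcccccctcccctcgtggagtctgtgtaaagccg
KDM4C, chr9:6757658-6757687: gcgcccaggaggACGTGtggcGCGTGgact
KDM5B, chr1:202780501-202780701: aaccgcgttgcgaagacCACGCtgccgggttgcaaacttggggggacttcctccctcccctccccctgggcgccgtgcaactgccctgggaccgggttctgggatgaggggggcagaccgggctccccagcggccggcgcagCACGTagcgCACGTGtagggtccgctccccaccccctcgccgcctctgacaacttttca
KDM4C upstream site, chr9:6716081-6716281: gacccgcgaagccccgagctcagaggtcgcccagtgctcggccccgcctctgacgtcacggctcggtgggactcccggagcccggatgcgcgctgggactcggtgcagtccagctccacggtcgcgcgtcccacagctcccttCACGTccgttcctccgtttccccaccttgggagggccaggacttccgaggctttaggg
The KDM6B and KDM5B windows each hold the palindrome CACGTG, which was counted on both strands. KDM6B and KDM5B had 4 cores each within 100 bp of the centre, KDM4B and the KDM4C promoter site 2 each, and KDM3A, KDM2B and the upstream KDM4C site 1 each. The leading KDM2A site had no core within 100 bp, the nearest lying 123 bp from its centre, and no sequence is shown for it.

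Merging overlapping peaks gave 30 sites, of which 10 were called in both libraries of at least 1 group and 14 were called in 1 library. Most binding fell on 1 site per gene: 229 of the 268 peaks (85.4%) lay at the site called in the most libraries of each gene. Of the 10 replicated sites, 6 lay within 1 kb of a coding TSS. The KDM3A site (chr2:86667259-86669732) lay 121 bp downstream of the nearest coding TSS, in an annotated UTR and 275 bp from the gene's outermost start. The KDM4C promoter site (chr9:6756744-6759267) lay 93 bp downstream of the nearest coding TSS, also in a UTR, but 36886 bp from the outermost start of the gene. The KDM2A site (chr11:66885426-66887440) was centred 1 bp upstream of a TSS and the KDM4B site (chr19:4967354-4969596) 501 bp upstream. The KDM2B site (chr12:122017760-122019636) lay 254 bp upstream of the nearest coding TSS, in an intron of a longer transcript, and the KDM6B site (chr17:7736325-7740933) in an intron, 1524 bp downstream of the nearest coding TSS. The KDM5B site (chr1:202779427-202782406) lay 2986 bp upstream, within the noncoding gene PCAT6, so its assignment to KDM5B depends on leaving noncoding genes out. When all annotated genes were allowed, KDM5B fell from 26 to 0 libraries, KDM6B from 31 to 3 and KDM2B from 33 to 20, so the KDM5B and KDM6B counts, and their differences given below, rest on the use of protein-coding genes. The plot of sites by distance shows the 7 leading sites, called in 18 to 47 libraries, all within 3 kb of a TSS.

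**Figure D1:**
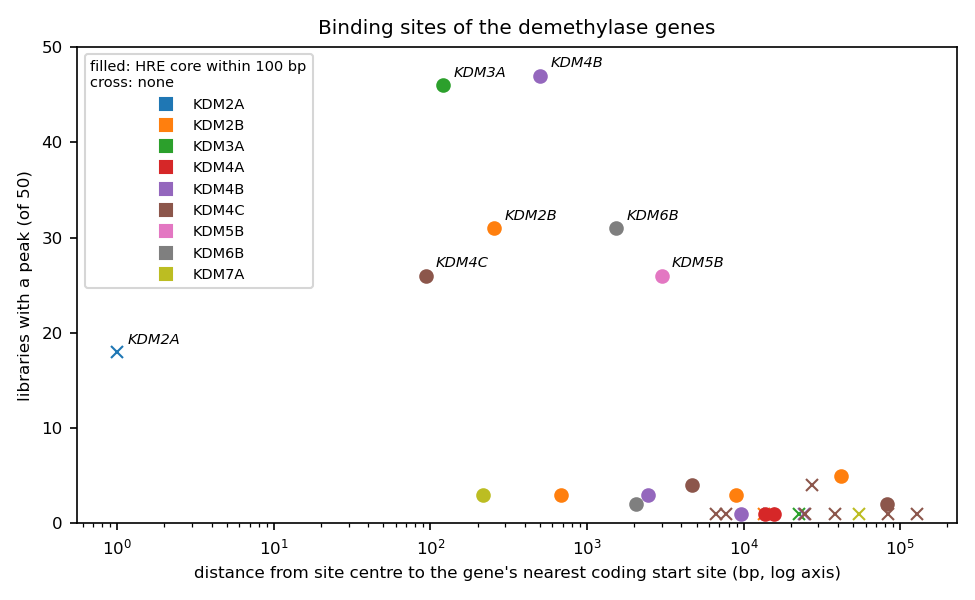
Sites of the demethylase genes, with the distance from the site centre to the nearest coding TSS of the gene (bp, log axis) against the number of libraries with a peak there (of 50). Colours stand for genes, filled circles for sites with an HRE core within 100 bp of the centre and crosses for sites without one; the 7 labelled sites were called in 18 to 47 libraries, and every other site in 5 or fewer.

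Over all member peaks, 188 of 268 (70.1%, exact 95% interval 64.3 to 75.6%) had an HRE core within 100 bp of the centre, against 49.6% of all 131131 peaks on the main chromosomes and 69.5% of all peaks within 1 kb of a TSS. Of 78564 TSS windows of the same 201 bp length, 41.0% held a core. The AP-1 motif, TGACTCA or TGAGTCA, the letters of each being the other strand of the other, was within 100 bp in 17 of 268 member peaks (6.34%, 3.74 to 9.96%), against 12.4% of all peaks, 5.13% of peaks within 1 kb of a TSS and 2.46% of TSS windows. The intervals cover counting error only, and most member peaks are repeated calls of the same 7 sites. Within 1 kb of a TSS lay 174 of 268 member peaks (64.9%) and 17.3% of all peaks. The member share with an HRE core was thus near that of promoter peaks in general.

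Of the 10 members, 9 were called in at least 1 library, where 61.0% of all protein-coding genes were. In both libraries of at least 1 group 7 were called, against 25.9% of genes, and 6 were called in 25 or more libraries, against 2.21% of genes. KDM4B was called in 47 of 50 libraries and KDM3A in 46, followed by KDM2B in 33, KDM6B in 31, KDM4C in 30, KDM5B in 26 and KDM2A in 19. KDM7A was called in 4 libraries, KDM4A in 2 and KDM3B in none. On the same scale, 8 established HIF targets ranged from 25 libraries (VEGFA, the angiogenic growth factor) to 49 (LDHA, lactate dehydrogenase), with a median of 43.5, and the median over all genes was 1.0. The members therefore range from genes as widely called as the established targets to a gene with no peak at all. They were chosen with earlier results of these data known, so their shares beside all genes are a description only.

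The heat map of score percentiles shows each library. The score percentile is the rank of a gene's strongest peak within its own list as a percentage of the list, so that 100 is the top of the list and 0 is written where no peak was called. It allows comparison between lists whose scores are not on 1 scale.

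**Figure D2:**
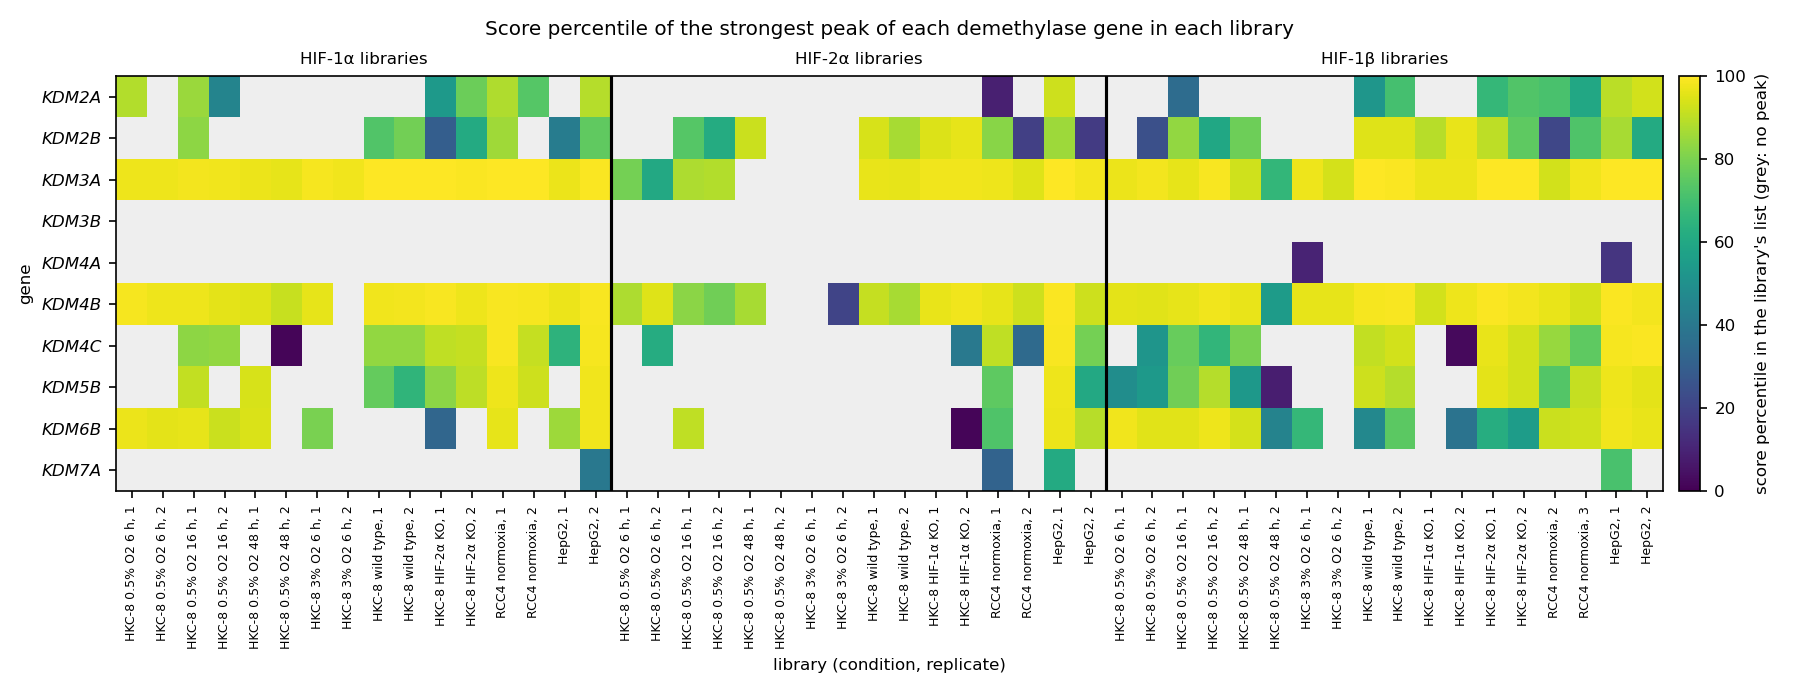
Score percentile of the strongest peak (colour, 0 to 100) for 10 demethylase genes (rows) in 50 libraries (columns, by antibody, condition and replicate); grey marks no peak. KDM3A and KDM4B fill most columns, KDM2A, KDM4C, KDM5B and KDM6B have fewer HIF-2α than HIF-1α columns, and KDM3B has no peak.

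KDM3A, which removes mono- and dimethyl groups of a repressive mark on histone H3, had the highest percentiles of the family. Where it was called its median percentile was 97.8 and its lowest 60.5. In HKC-8 wild-type cells no HIF-1α peak in either list scored above it (scores 3100 and 2454.2), and in the HIF-2α KO cells the HIF-1α peak ranked 1 of 1271 and 5 of 915. The HIF-1α percentiles were between 96.1 and 100.0 in all 16 HIF-1α libraries. HIF-2α was called in 12 of 16 libraries, missing from both libraries at 3% oxygen and both at 48 h. HIF-1β was called in all 18 libraries.

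KDM4B, a demethylase of trimethylated histone H3, was called in all 18 HIF-1β libraries, 15 of 16 for HIF-1α and 14 of 16 for HIF-2α, with a median percentile of 96.5 where called. The 3 libraries without it were HIF-1α replicate 2 and HIF-2α replicate 1 at 3% oxygen, and HIF-2α replicate 2 at 48 h. Over the 50 libraries, the other protein-coding genes outside the family with the most similar percentiles were GAPDH (a glycolytic enzyme; mean absolute difference 6.17 percentile points), C4orf3 (6.25) and P4HA1 (a collagen prolyl hydroxylase; 6.63). KDM3A stood 7.1 points from KDM4B on the same measure, and the other members 38.4 points or more.

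KDM4C, of the same subfamily as KDM4B, was called in 11 HIF-1α, 6 HIF-2α and 13 HIF-1β libraries. It had further sites in HepG2. Its site 4682 bp upstream of the nearest coding TSS (chr9:6714964-6717057, within a noncoding gene) was called in 4 HepG2 libraries at percentiles of 97.8 to 99.4 and in no other line, and an intronic site at chr9:6897550-6898480 was called in 4 HepG2 libraries at 64.8 to 77.1. KDM5B, which removes methylation that marks active promoters, was called in 9 HIF-1α, 3 HIF-2α and 14 HIF-1β libraries. Its 3 HIF-2α calls were in RCC4 and HepG2.

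KDM6B (JMJD3), which removes the methylation that Polycomb complexes place, was called in 10 HIF-1α, 5 HIF-2α and 16 HIF-1β libraries. KDM2A and KDM2B bind unmethylated CpG islands through a zinc finger, and KDM2B recruits a Polycomb complex. KDM2A was called in 8 HIF-1α, 2 HIF-2α and 9 HIF-1β libraries, and KDM2B in 8, 11 and 14. KDM2B was the only replicated member with more HIF-2α than HIF-1α calls. A second KDM2B site, in an intron 683 bp from a coding TSS (chr12:121973807-121975685), was called in HIF-1α KO cells alone, in both HIF-2α libraries (percentiles 31.7 and 68.5) and in 1 HIF-1β library (80.3).

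KDM7A, KDM4A and KDM3B were rarely or never called. The 4 KDM7A calls, 3 of them at a site 217 bp upstream of a TSS, were in HepG2 and RCC4, at percentiles of 31.7 to 71.3, and the 2 KDM4A calls were intronic HIF-1β peaks at percentiles of 10.1 and 15.4. An absent call means that no peak passed the caller's threshold, and the depth behind it is unknown.

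Nearly all HIF-α calls at these genes were in conditions with a HIF-1β call at the same gene. Of 133 HIF-1α or HIF-2α calls, 131 (98.5%) were in a condition where HIF-1β was called at the same gene in at least 1 library, against 60.2% of 45186 such calls over all protein-coding genes. The 2 exceptions by gene were KDM2A (HIF-1α, 0.5% oxygen, 6 h, replicate 1) and KDM7A (HIF-2α, RCC4, replicate 1). KDM3A and KDM4B were called in all 18 HIF-1β libraries, so each of their HIF-α calls had a match, while the median over all genes was 1.0 library. The part of how widely a gene was called in this contrast was not tested. The match was by gene and not by site. Several HIF-α sites called in 1 library had no HIF-1β peak, among them HIF-2α sites of KDM2A (percentile 8.63) and KDM4C (62.0).

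For the question of whether both α subunits bind these genes alike, calls were compared over the 28 libraries of the 7 conditions with both subunits, with an exact permutation test within condition. In 6 of the 7 members tested the call was more frequent for HIF-1α, where 34.2% of the 3504 genes tested had that direction. The median difference was 28.6 percentage points for the members against 0.0 for all genes. Promoter peaks, by the 1 kb limit, made up 64.9% of member peaks. Over all genes and libraries they made up 23.7% of the HIF-1α lists but 10.4% of the HIF-2α lists. The all-gene shares, here and in the comparison by condition below, were not limited to genes with promoter peaks. The part of promoter position in the direction seen at the members was therefore not tested. KDM3A was called in all 14 HIF-1α libraries and in 10 of 14 with the HIF-2α antibody (28.6 points, exact p = 0.0556, adjusted p = 0.751). KDM6B was called in 9 and 4 (35.7 points, exact p = 0.0833), KDM4C in 9 and 5, KDM5B in 7 and 3 and KDM2A in 6 and 2 (28.6 points each), and KDM4B in 13 and 12 (7.14 points). KDM2B went the other way, with 6 HIF-1α and 9 HIF-2α libraries (-21.4 points, exact p = 0.25). No gene of the 3504 passed the exact permutation test after Benjamini-Hochberg adjustment (0.0%), while 221 had an unadjusted p under 0.05. Without HepG2 6 of the 7 members again had more HIF-1α calls, against 29.6% of 2285 genes; KDM5B then differed by 41.7 points (exact p = 0.0417, adjusted p = 0.392) and KDM3A by 33.3 points (adjusted p = 0.441).

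The result for KDM3A changed when the score percentile replaced the call. In that exact permutation test 69 of 3504 genes (1.97%) had an adjusted p under 0.05, and KDM3A was among them. The count was 148 without HepG2 and 29 to 110 when each of the 28 libraries was left out, the lowest counts being without 48 h HIF-1α replicate 1 (29) or 2 (31) and the highest without HepG2 HIF-2α replicate 1. The KDM3A mean percentile was 98.4 with HIF-1α against 64.2 with HIF-2α (difference 34.1 points, exact p = 5e-05, adjusted p = 0.0188, n = 14 and 14). Means count 0 for each library without a call. For HIF-2α at KDM3A these were both 48 h lists (1383 and 237 peaks) and both 3% lists (558 and 977). The HIF-1α lists there held 1073 and 1073 peaks at 48 h and 1223 and 656 at 3% oxygen. In the other HIF-2α libraries KDM3A stood at 60.5 to 99.8. The KDM3A difference stayed under the threshold when each library was left out in turn (adjusted p of the exact permutation test 0.00622 to 0.0274), and without HepG2 the difference was 39.9 points (adjusted p = 0.00516). It did not stay under the threshold when replicate number was used as a block (adjusted p = 0.0978), where 0 genes passed and 368 had an unadjusted p under 0.05 by the exact permutation test. None of the other members passed; KDM4B had 90.1 against 72.1 (exact p = 0.00842, adjusted p = 0.157) and KDM6B 59.7 against 24.9 (exact p = 0.0139, adjusted p = 0.188). Without HepG2 these differences were, in the exact permutation test, 20.6 points (adjusted p = 0.104) and 40.8 points (adjusted p = 0.108).

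The same order appeared condition by condition. At KDM3A both HIF-1α percentiles were above both HIF-2α percentiles in 6 of 7 conditions, the exception being HepG2, where 96.9 and 99.6 for HIF-1α overlapped 99.8 and 98.3 for HIF-2α. At KDM4B this held in 5 of 7 conditions and at KDM4C in 3, against 3.03% of genes tested with 3 or more. HIF-2α stood above HIF-1α without overlap at KDM2B in 1 condition, HKC-8 wild type (94.0 and 87.1 against 73.0 and 78.9), and at no other member, against 44.9% of genes tested with at least 1 such condition. Without HepG2 the conditions with this order were the same in number, 6 of 6 for KDM3A, 5 for KDM4B, 3 for KDM4C and, for HIF-2α at KDM2B, 1, and the shares of 2285 genes were 4.6% and 57.7%. By calls in both libraries of 1 subunit and neither of the other, the members had 7 HIF-1-only and 0 HIF-2-only gene and condition combinations and 15 shared ones, while over all genes 18.4% were HIF-1-only, 37.3% HIF-2-only and 44.3% shared. Without HepG2 the members had 7, 0 and 10, and the shares over all genes were 20.4%, 44.8% and 34.7%. Of the 1580 HIF-2-only combinations over all genes, 971 were in HKC-8 wild type. There the HIF-2α lists held 4537 and 6749 peaks and the HIF-1α lists 1913 and 1535. HIF-1-only genes outnumbered HIF-2-only genes at 16 h (136 against 134), at 48 h (59 against 28), in RCC4 (241 against 154) and in HepG2 (95 against 73). The reverse held at 6 h in 0.5% oxygen (109 against 144) and in 3% (44 against 76). These classes are by gene, so a shared class does not require the same site, as at KDM4C in RCC4.

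**Figure D3:**
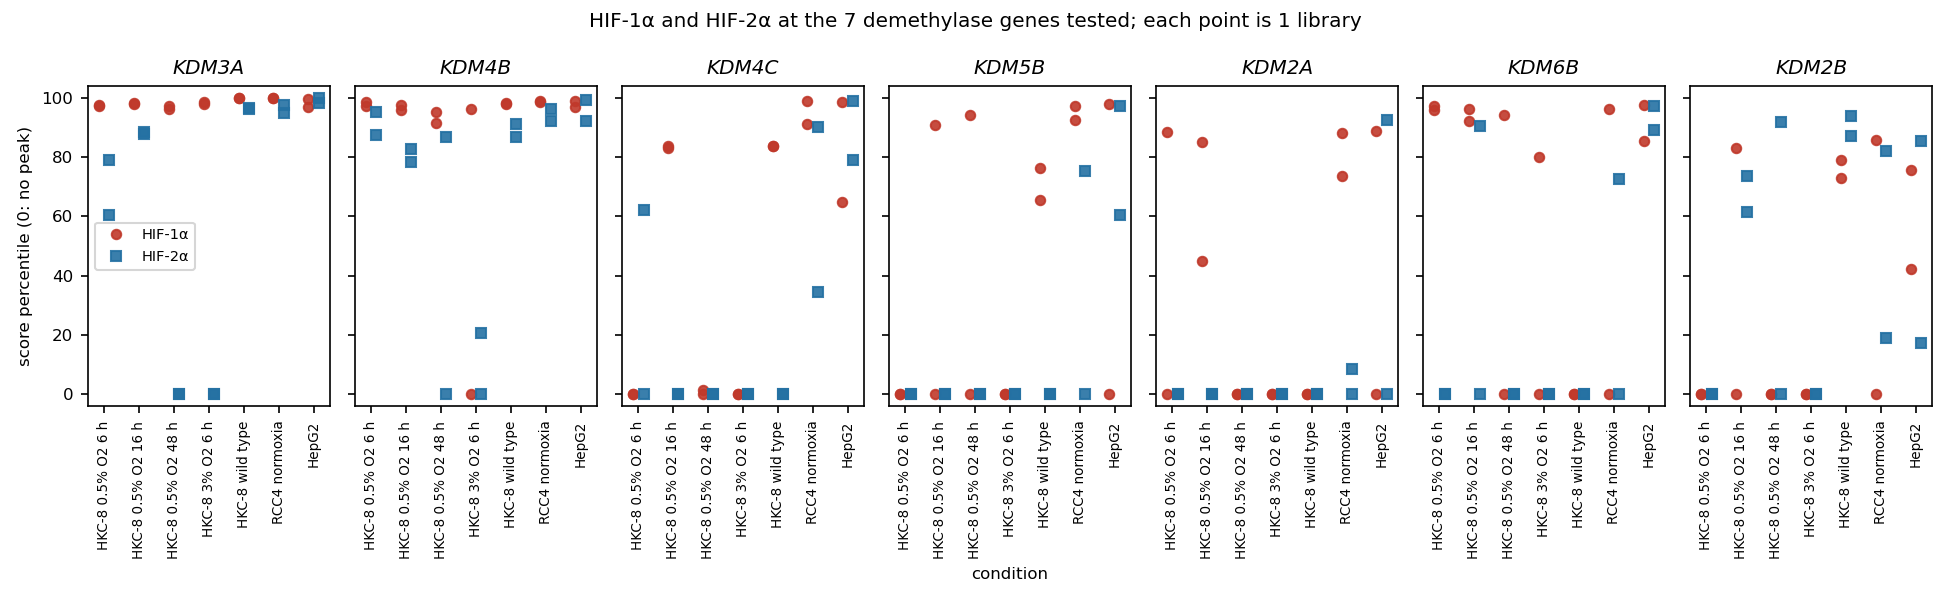
Score percentile (0 where no peak was called) of HIF-1α (circles) and HIF-2α (squares) at the 7 members tested, each point 1 library, by condition. At KDM3A the circles lie at 96.1 or above in all conditions while the squares fall to 0 at 48 h and at 3% oxygen.

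Oxygen level was compared in HKC-8 cells at 6 h, 3% against 0.5%, over 12 libraries. In this and the other 12-library comparisons below, an adjusted p of 0.05 needed 18.5% of the genes tested at the smallest possible p. A count of 0 genes passing in them therefore does not show that binding was unchanged. All 3 members that passed the filter of 3 libraries, KDM3A, KDM4B and KDM6B, were called less often at 3%, by 33.3 percentage points each, where 57.2% of 848 genes tested had that direction. KDM3A was called by HIF-1α at 98.5 and 97.9 in 3% oxygen and at 97.5 and 97.3 in 0.5%. HIF-2α was called there in neither 3% library and at 79.2 and 60.5 in 0.5%. At KDM6B the HIF-1α percentiles were 80.0 and no call in 3%, against 97.1 and 95.9, and the HIF-1β percentiles 66.6 and no call against 98.0 and 95.4. KDM2A, KDM2B, KDM4C and KDM5B had no call in 3% oxygen and 1 or 2 calls of 6 in 0.5%, and KDM4A had 1 call of 6 in 3% and none in 0.5%. The 3% lists were also shorter, 558 to 1223 peaks against 1271 to 1496, and the part of list length in these differences was not tested. None passed (exact p = 0.333 for KDM3A and 0.5 for the others, adjusted p = 1.0); 0 of 848 genes (0.0%) passed by calls or by percentile, and 9 had an unadjusted p under 0.05 by calls.

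Duration was compared in HKC-8 cells in 0.5% oxygen, 16 h against 6 h. Of 7 members tested, 5 were called more often at 16 h, none less often and 2 equally, where 53.6% of 1096 genes were called more often. KDM2B was called in 5 of 6 libraries at 16 h and in 1 of 6 at 6 h (66.7 points, exact p = 0.0833, adjusted p = 1.0). Its HIF-2α percentiles were 73.6 and 61.6 at 16 h, with no call at 6 h. At KDM4C both HIF-1α libraries had a call at 16 h (83.1 and 83.9) and neither had one at 6 h. KDM3A and KDM4B were called in all 12 libraries. No gene passed (0.0%), with 5 of 1096 genes at an unadjusted p under 0.05 by the exact permutation test on calls.

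At 48 h against 6 h, 3 of 6 members tested were called less often, 2 more often and 1 equally, where 59.3% of 816 genes were called less often. KDM3A was called in 4 of 6 libraries at 48 h against 6 of 6, HIF-2α being missing from both 48 h lists, of 1383 and 237 peaks. HIF-1α remained near the top at 97.2 and 96.1. KDM4B was called in 5 of 6 libraries at 48 h; its missing call was in the 237-peak list, and without that library its difference was 0 points. Without that library the KDM2B difference moved from 16.7 to 33.3 points. None of the differences passed (adjusted p = 1.0 for calls at each member), 0 of 816 genes passed (0.0%), and 3 had an unadjusted p under 0.05 by the exact permutation test on calls.

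HKC-8 cells in 0.5% oxygen for 16 h were assayed in both HKC-8 experiments, and the lists differed. At KDM6B the HIF-1α percentiles were 96.3 and 92.1 in the duration experiment while neither wild-type library of the knockout experiment had a call, and the HIF-1β percentiles were 95.6 and 97.5 against 46.5 and 74.7. KDM2A was called by HIF-1α at 85.0 and 45.1 in the former and in neither library of the latter. KDM3A, KDM4B and KDM4C had the same calls in both. These experiments were not pooled or tested against each other.

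The knockout cells address whether binding at a gene needs a given α subunit. No library in either knockout was made with an antibody to its missing subunit, so these lists hold no check of the knockout itself. In wild-type cells HIF-1β was called in both libraries at 7 members, HIF-1α at 5 and HIF-2α at 3. In HIF-1α KO cells HIF-1β was called in neither library at KDM2A and KDM5B, 2 of 7 members (28.6%), near the 26.8% of 2728 genes that behaved so. KDM5B had gone from 92.5 and 88.7 in wild-type cells to no call, and KDM2A from 52.4 and 70.6. At KDM4C HIF-1β went from 91.0 and 93.2 to no call and 2.53, and at KDM6B from 46.5 and 74.7 to no call and 38.1. At these 4 genes HIF-2α was called in neither wild-type library, and HIF-1α was called in both at KDM4C and KDM5B and in neither at KDM2A and KDM6B.

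KDM3A, KDM4B and KDM2B, the 3 members with HIF-2α in both wild-type libraries, held HIF-1β in both HIF-1α KO libraries. KDM3A HIF-1β stood at 97.2 and 97.0 against 99.8 and 99.6 in wild-type cells, and KDM2B HIF-1β at 89.1 and 96.6 against 95.2 and 95.3. HIF-2α at KDM4B was at 96.5 and 98.0 in HIF-1α KO cells against 91.3 and 86.9. None of the 3 lost HIF-2α from both libraries, where 9.44% of 1928 genes did.

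In HIF-2α KO cells none of the 7 members lost HIF-1β from both libraries, where 40.8% of 2728 genes did, and none of the 5 lost HIF-1α, where 21.7% of 783 genes did. At KDM5B HIF-1α stood at 82.7 and 90.2 in HIF-2α KO cells against 76.5 and 65.5, and at KDM4C at 90.4 and 91.1 against 83.6 and 83.9. KDM2A was called by HIF-1α in both HIF-2α KO libraries (54.1 and 77.4) and in neither wild-type library. KDM2B moved the other way for HIF-1α, at 29.9 and 61.0 against 73.0 and 78.9. The wild-type HIF-1β lists held 6199 and 8279 peaks and the knockout lists 2085 to 5786, so percentiles refer to lists of unequal length. The HIF-1α lists held 1913 and 1535 peaks in wild-type cells and 1271 and 915 in HIF-2α KO cells. Of these peaks 20.1% and 18.3% against 31.5% and 43.2% lay within 1 kb of a TSS. A higher percentile or a gained call there is therefore no measure of more HIF-1α binding. The authors report slightly reduced HIF-1α binding and protein in the HIF-2α KO cells. These values are a description; with 2 libraries per group the smallest p for the 8 libraries of a knockout and its wild-type controls is 0.0556.

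**Figure D4:**
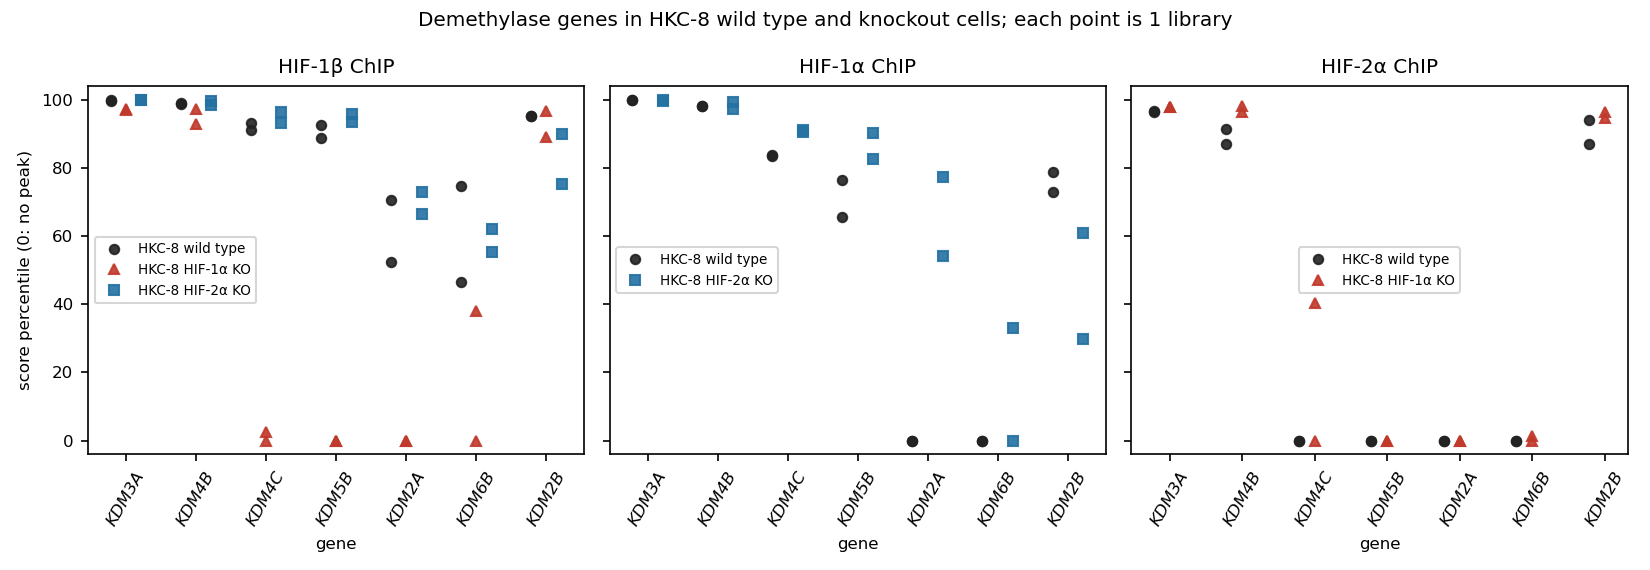
Score percentile (0 where no peak was called) at 7 members in HKC-8 wild-type (circles), HIF-1α KO (triangles) and HIF-2α KO (squares) cells, by antibody, each point 1 library. In the HIF-1β panel the triangles fall to 38.1 or below at KDM4C, KDM5B, KDM2A and KDM6B and stay at 89.1 or above at KDM3A, KDM4B and KDM2B.

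RCC4 and HepG2 were each compared with the same HKC-8 wild-type libraries. RCC4 was in normoxia and HKC-8 in 0.5% oxygen for 16 h. In both comparisons line cannot be told apart from experiment, nor in RCC4 from oxygen level. The RCC4 HIF-1β lists held 911 and 1305 peaks against 6199 and 8279, and the part of list length was not tested. The RCC4 HIF-1β libraries are labelled repeats 2 and 3, with inputs of their own. The RCC4 HIF-1α and HIF-2α libraries are labelled replicates 1 and 2, and the labels do not say how the 2 series relate. In RCC4, 4 of 7 members tested were called more often, 1 (KDM2B, -16.7 points) less often and 2 equally, where 16.7% of 3416 genes were called more often; the median difference was 16.7 points for the members and -33.3 for all genes. With all annotated genes allowed, the KDM2B difference reversed to 50 points (exact p = 0.278). KDM2A was called in 5 of 6 RCC4 libraries against 2 of 6 (50 points, exact p = 0.167, adjusted p = 0.393). At KDM4C HIF-2α was called at 90.3 and 34.4 in RCC4 and in neither wild-type library. These RCC4 peaks were at different intronic sites, 82784 and 83727 bp from the nearest coding TSS. The KDM4C promoter site was called by HIF-2α in RCC4 replicate 1 alone (72.3). The KDM2B mean percentile was 46.8 in RCC4 and 87.2 in HKC-8 (exact p = 0.0556, adjusted p = 0.166). No gene passed (0.0%), and 310 had an unadjusted p under 0.05 by the exact permutation test on calls.

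In HepG2, 5 of 8 members tested, by calls assigned among protein-coding genes, were called more often than in HKC-8, 3 equally and none less often, where 47.5% of 4716 genes were called more often. KDM6B showed the largest difference of the members, called in 6 of 6 HepG2 libraries and 2 of 6 HKC-8 libraries (66.7 points, exact p = 0.0556, adjusted p = 0.229). Its 6 HepG2 percentiles were 85.5 to 97.8, and the HKC-8 percentiles 46.5 and 74.7 for HIF-1β with no call for HIF-1α or HIF-2α. By percentile the difference was 73.8 points (exact p = 0.00926, the smallest the design allows, adjusted p = 0.0708), and with lists cut to equal length the calls were 100 points apart (exact p = 0.00926, adjusted p = 0.0496). In the duration experiment, also at 0.5% oxygen for 16 h, KDM6B in HKC-8 stood at 96.3 and 92.1 for HIF-1α. Its HIF-1β there was at 95.6 and 97.5, and HIF-2α was called in 1 of 2 libraries (90.4). HepG2 was not tested against that experiment, so the difference holds only for the wild-type libraries of the knockout experiment. KDM7A was called in 3 of 6 HepG2 libraries and no HKC-8 library (exact p = 0.25). With 12 libraries an adjusted p of 0.05 could be reached only if 18.5% of the genes tested had the smallest p. No gene passed by calls (0.0%) or by percentile (0.0%), and 717 had an unadjusted p under 0.05 by the exact permutation test on calls.

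Of 21 other demethylase and JmjC genes, 6 were called in both libraries of at least 1 group and 0 in 25 or more libraries. KDM5C, a relative of KDM5B, was called in 19 libraries (9 HIF-1α, 4 HIF-2α, 6 HIF-1β), and JARID2, a JmjC protein of a Polycomb complex that lacks demethylase activity, in 18. JMJD6 was called in 11, JMJD1C in 9 and KDM1A, an amine oxidase that uses flavin rather than iron, in 6. RIOX2, a ribosomal oxygenase, was called in 5 HIF-2α and 4 HIF-1β libraries and in 0 HIF-1α libraries. The median over these 21 genes was 2.0 libraries, against 28 for the 10 members. Both lists were chosen with earlier results of these data known, so this contrast is a description only.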

How the data were processed

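The study's 66 samples were 50 ChIP libraries and 16 input samples; the inputs were not analysed here. Per the labels and methods, the authors trimmed reads (Trim Galore 0.3.3), aligned them to hg19 (BWA 0.7.5a-r405), filtered by mapping quality (SAMtools 0.1.19), removed black-listed regions (bedtools 2.17.0), marked duplicates (Picard 1.106) and called peaks in each library against input with MACS. The deposited score of each peak, at least 50 and comparable within a list only, is not a count, so score ranks and presence of a peak were used. The methods also name a second caller, T-PIC, and a count filter on peaks found by both callers; whether these were applied to the deposited lists is not given in the sources used here. The lists held 237 to 8279 peaks; read depth is unknown.

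Peaks were assigned to 19821 protein-coding genes with the GENCODE GRCh37 annotation (release 44); 294 peaks on other contigs and 191 whose nearest TSS belonged to several genes were not assigned. No peak passed a chromosome end. The members and lists were chosen with earlier results of these data known. Sites called in both libraries of a group were named by coordinates. Sequence was planned for the 8 with the most libraries and shown for all of them but the KDM2A site, which had no core within 100 bp. The planned window of 100 bp to either side was shortened where it met a UTR. All 10 members were named; other demethylase and JmjC genes were named only where called in both libraries of a group. The 3 non-member genes with percentiles nearest to the most widely called member were also named.

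Calls were compared with two-sided exact permutation tests within condition or antibody, over genes called in at least 4 of 28 or 3 of 12 libraries, with Benjamini-Hochberg adjustment over all genes tested and a threshold of 0.05. Tests were checked on simulated data. Alternatives changed the score minimum, list length, distance limit, gene set, measure and libraries. Exact binomial intervals are at 95%. Python 3.11.15, numpy 2.4.6, pandas 2.3.3, scipy 1.17.1 and pysam 0.24.0 were used.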

Additional observations from a re-analysis of the deposited data

Results flagged for a closer look

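Some members had score percentiles that differed in opposite directions with different antibodies under the same contrast, with no overlap between the libraries of the groups; none of these differences between antibodies was tested. All values are differences of mean score percentile with 2 libraries per group. Several are differences of a few points, and the lists compared differed in length (3% oxygen HIF-1α, 656 and 1223 peaks against 1319 and 1496; RCC4 HIF-1β, 911 and 1305 against 6199 and 8279), whose part was not tested. The KDM3A scores for HIF-1α were 262.09 and 146.59 at 3% oxygen against 263.85 and 174.14 at 0.5%. At 3% against 0.5% oxygen, KDM3A differed by 0.832 points for HIF-1α and by -69.8 for HIF-2α, and KDM4B by -49.9 (HIF-1α), -81.2 (HIF-2α) and 0.563 (HIF-1β). At 16 h against 6 h, KDM4B differed by -10.8 (HIF-2α) and 1.4 (HIF-1β).

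In RCC4 against HKC-8, KDM4B differed by 0.843 (HIF-1α), 5.23 (HIF-2α) and -3.8 (HIF-1β). KDM4C differed by 11.3, 62.3 and -12.2 in that order. Its HIF-2α calls in RCC4, at 90.3 and 34.4, were at different intronic sites. In HepG2 against HKC-8, KDM3A differed by -1.75 with the HIF-1α antibody, 2.62 with HIF-2α and 0.216 with HIF-1β. The HIF-1β score was 3100 in both libraries of each line, so the 0.216 points are not a difference of score. The HIF-1α value includes replicate 1 (96.9, replicate 2 being 99.6), 1 of the HepG2 libraries whose replicates stand apart. In HIF-1α KO against wild-type cells, KDM3A differed by 1.35 (HIF-2α) and -2.56 (HIF-1β), and KDM4B by 8.13 (HIF-2α) and -3.73 (HIF-1β).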

How the results depend on the processing

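The count of genes passing stayed at 0 for all 6 comparisons of calls under the score minimum of 100, the upper 50% of each list, the 10 kb limit, the gene-body distance, all GENCODE genes, no filter and the libraries without replicate 1, 2 or 3; with 1 replicate per group the smallest possible p of the oxygen, time and HepG2 comparisons was 0.25. Lists of equal length gave 70 genes for the isoform comparison and 350 for HepG2, with KDM3A (50 points, exact permutation test, adjusted p = 0.0346) and KDM6B (adjusted p = 0.0496) among them. For the isoform comparison the score percentile gave 69 genes, 148 without HepG2 (added after seeing the data), and 29 to 110 when each library was left out (added likewise). The count fell below 46 without HKC-8 48 h HIF-1α replicate 1 (29) or 2 (31), 48 h HIF-2α replicate 1 (39), 3% HIF-1α replicate 1 (39) or 2 (45), 3% HIF-2α replicate 2 (41) or RCC4 HIF-2α replicate 1 (45), and rose to 110 without HepG2 HIF-2α replicate 1. Without the 237-peak library (added likewise), 0 genes passed by calls in both comparisons that use it.

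Member calls summed over libraries were 238, and 139 with lists of equal length. With all GENCODE genes 166 remained, KDM5B falling from 26 to 0 libraries, KDM6B from 31 to 3 and KDM2B from 33 to 20, and the KDM2B difference in RCC4 reversed to 50 points. An HRE core lay in 95.5% of whole member peaks and AP-1 in 23.5%, and 89.6% of member peaks lay within 5 kb of a TSS. The cause of the other changes was not tested.

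Replicate numbers did not pair the libraries: replicate deviations of HIF-1α and HIF-2α correlated at -0.342 (HepG2) to 0.108 (RCC4) over genes. With a replicate block 0 genes passed in every comparison of calls and 0 by percentile in the isoform comparison, where KDM3A had an adjusted p of 0.0978.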
